A study of Rattus norvegicus with 6 samples.

Results

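Aggrecan, versican and hyaluronan form the large, water-binding aggregates of the disc matrix. Transcripts of 10 genes of this system were followed in cultured rat nucleus pulposus cells (NPCs): the core proteins Acan and Vcan, the link proteins Hapln1 and Hapln3, the hyaluronan synthase Has2, the hyaluronidases Hyal1 and Hyal2, the hyaluronan receptor Cd44, the membrane proteoglycan Cspg4 and the chondroitin sulfotransferase Chst11. The genes were chosen by their role, from the symbols of the count table, with earlier results of these data known. All 10 had a row among the 14882 rows with at least 1 count, and all 10 passed the filter on low counts that left 11426 genes for testing. In the matrix of the nucleus pulposus, many aggrecan molecules bind to 1 chain of hyaluronan, and link proteins hold each of them in place. The sulfated chondroitin chains on the core protein draw in water and let the disc bear load. Hyaluronan itself is made at the plasma membrane by synthases, bound at the cell surface by CD44 and cut by hyaluronidases.

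The RNA-seq compared 3 libraries of NPCs treated with TBHP (tert-butyl hydroperoxide, an oxidant used to induce senescence) with 3 libraries treated with TBHP and recombinant rat FGF21, to ask how FGF21 alters the stressed cells. The cells were primary cultures from caudal discs of male wild type Sprague-Dawley rats of unstated age, so both groups share the oxidant, and no untreated library was analysed here. The labels do not give the dose or duration used for the sequenced cells, nor which animals went into which culture. In the TBHP+FGF21 group, replicates 2 and 3 carry a treatment label that reads FGF22 and FGF23 in place of FGF21, whereas the treatment protocol and the series text name FGF21 for the whole group, which is followed here.

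The libraries held 18277732 to 22426190 counts, and the 10 genes together took 0.470% to 0.693% of them, most of it Acan (0.251% to 0.445%). TBHP replicate 3 had a mean Spearman correlation of 0.9931 with its own group and 0.9938 with the treated group. For replicate 2 of the TBHP+FGF21 group the values were 0.9902 with its own group and 0.9959 with the TBHP group. Thus 1 library of each group was closer to the other group, TBHP replicate 3 by the smaller margin. Replicate 2 of the TBHP+FGF21 group stood apart from the other libraries of its group. On the first principal component, which carried 47.4% of the variance, it lay at -10.6, among the TBHP libraries (-17.7 to -1.22) and away from replicates 1 and 3 of its own group (18.1 and 26.7). For 8 of the 10 genes its level was within the range of the TBHP libraries. Results that rest on this library are therefore given with and without it. Because it was singled out by its measured expression, which resembled the TBHP group, leaving it out selects on the outcome, and the p-values without it are biased towards small values and are given as a description. The labelled cell type was only partly matched by its markers. The notochordal genes Tbxt, Noto and Shh had no count in any library, Krt18 had at most 3 counts and Col2a1 9 to 14, while the nucleus pulposus genes Acan, Pax1 (4108 to 8837 counts) and Foxf1 (749 to 1425 counts) were well covered. The fibroblast collagen Col1a1 had 639245 to 862314 counts. Among 8 macrophage markers, Cd14 (527 to 701 counts) and Cd68 (28 to 52 counts) were detected, Csf1r and Aif1 had at most 6 counts, and Ptprc, Adgre1, C1qa and Mrc1 had no count, which at this depth allows a level of up to 0.134 to 0.164 CPM (counts scaled to the size of the library), the value of 3 counts.

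The stretch of 250 bases before the transcription start was available in RefSeq (build GRCr8) for 8 of the 10 genes, not for Has2 and Hapln3. The windows of Acan (chr1:142390701-142390950, plus strand), Vcan (chr2:22595956-22596205, minus strand) and Hyal1 (chr8:117129061-117129310, plus strand) are printed because these are the 3 genes with the largest positive differences below. Each is written 5' to 3' in the direction of transcription, and capitals mark matches of the motifs searched.
Acan: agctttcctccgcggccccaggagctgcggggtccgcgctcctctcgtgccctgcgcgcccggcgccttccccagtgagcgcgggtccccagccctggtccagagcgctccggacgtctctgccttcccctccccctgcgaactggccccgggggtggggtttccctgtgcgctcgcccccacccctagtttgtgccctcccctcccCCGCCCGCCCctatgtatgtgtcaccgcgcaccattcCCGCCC
Vcan: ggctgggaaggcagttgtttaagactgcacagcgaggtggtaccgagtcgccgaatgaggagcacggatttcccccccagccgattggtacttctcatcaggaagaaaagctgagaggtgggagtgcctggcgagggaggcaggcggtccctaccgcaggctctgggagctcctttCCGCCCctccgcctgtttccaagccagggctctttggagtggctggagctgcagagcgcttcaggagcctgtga
Hyal1: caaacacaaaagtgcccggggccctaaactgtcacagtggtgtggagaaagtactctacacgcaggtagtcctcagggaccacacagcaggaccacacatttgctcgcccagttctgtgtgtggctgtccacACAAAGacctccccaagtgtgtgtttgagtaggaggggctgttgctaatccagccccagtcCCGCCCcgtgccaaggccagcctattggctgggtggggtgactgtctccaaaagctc
The motifs, each searched on both strands, were the GC box (GGGCGG), the AP-1 element (TGANTCA), the cyclic AMP response element (TGACGTCA), a first SOX core (ACAATG), a second SOX core (ACAAAG) and the TATA box (TATAAA). The Acan window had a GC content of 73.6% and 3 GC box matches, which began 6, 39 and 43 bases before the start. The Vcan window printed (61.6% GC) had 1 GC box match, and the Hyal1 window (57.2% GC) had 1 GC box match and 1 match to the second SOX core. Another Vcan window, for a different annotated start (chr2:22595858-22596107, minus strand, 60% GC), was not printed. It had 1 GC box match, which began 172 bases before that start. The median GC content of all 33469 windows was 51.2%. A GC box was found for 6 of the 8 genes, and in 30.5% of all windows. The second SOX core was found for 2 of the 8 genes, Hyal1 and Hapln1, and in 16.3% of all windows. None of the 8 genes had a match to the AP-1 element, the cyclic AMP response element, the first SOX core or the TATA box, which were found in 6.34%, 1.59%, 11.1% and 12.9% of all windows. No match overlapped that of another motif. These matches describe the letters in the windows only.

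With FGF21, Acan, Vcan and Hyal1 transcripts were higher on average and Has2 transcripts were lower, whereas Cd44, Cspg4, Hyal2 and Hapln3 differed little in mean. The differences were moderate: the mean Acan level was 1.32 times that of the TBHP group, Hyal1 1.37 times and Has2 0.747 times. None of the 10 genes had an adjusted p under 0.05 when edgeR's quasi-likelihood p was adjusted over all genes by Benjamini-Hochberg, against 0.00875% of the genes tested, and DESeq2 and limma-voom also called none of them. At an unadjusted p under 0.05, edgeR picked 3 of the 10 (Acan and Hyal1 higher, Has2 lower), against 8.92% of all genes tested (4.63% higher and 4.29% lower), DESeq2 picked 4 and limma-voom 3. The log2 fold change was positive for 6 genes and negative for 4, with a median of 0.052, beside -0.0052 over all genes (5592 positive and 5834 negative). In bulk RNA, a smaller number of cells of a type and less RNA per cell cannot be told apart. Levels below are CPM after scaling by the trimmed mean of M-values (TMM), and they are compared between libraries, not between genes, because transcript lengths were not used. Counting error was between 0.316% of the value (Acan) and 8.94% (Hapln3) in a single library.

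**Figure D1:**
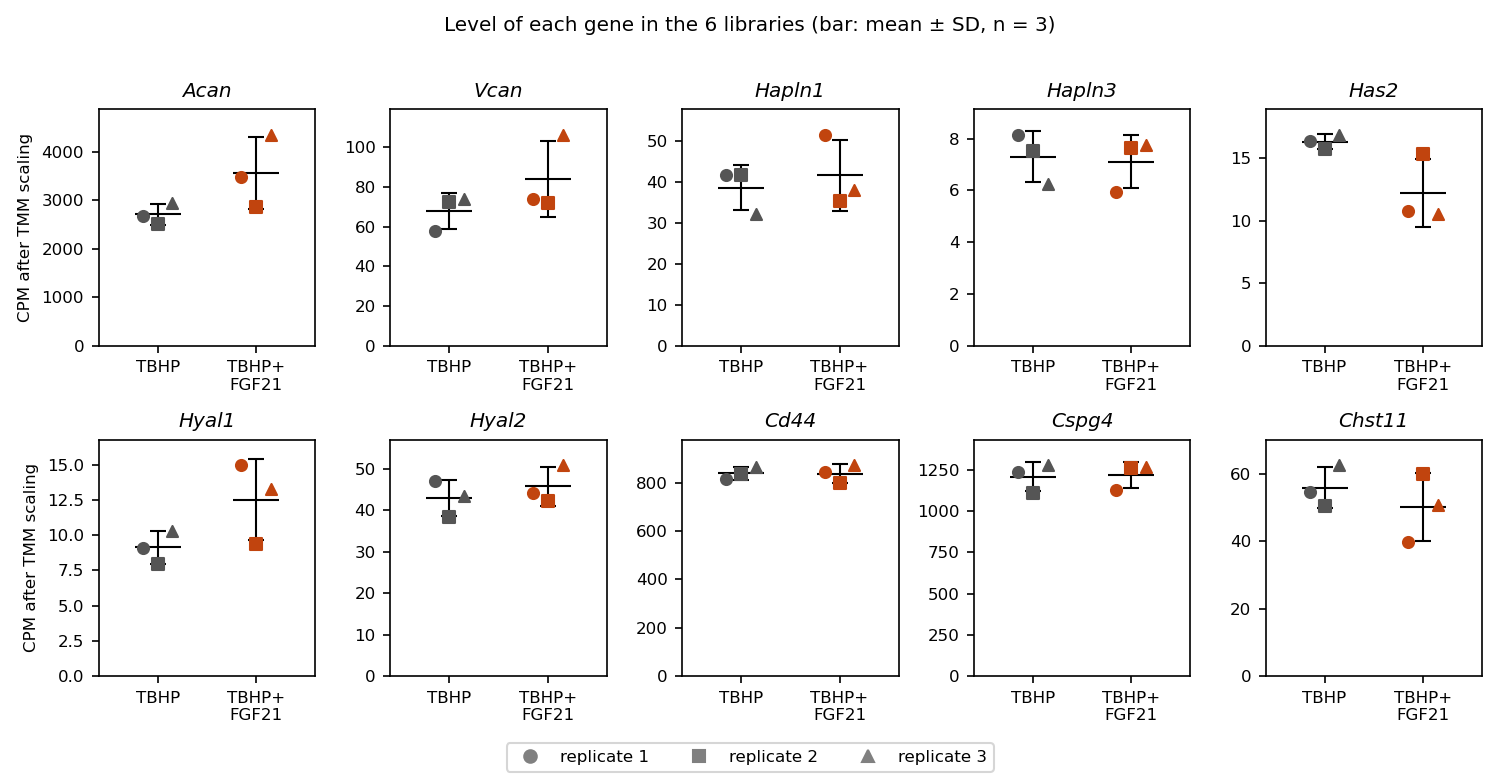
Level of each of the 10 genes in every library (CPM after TMM scaling, linear axes from 0), with 1 symbol per replicate and a line for the mean ± SD (n = 3). Replicates 1 and 3 of the TBHP+FGF21 group (circle and triangle) lie above all TBHP libraries for Acan, Vcan and Hyal1 and below them for Has2, while replicate 2 (square) lies beside or among the TBHP libraries.

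Acan encodes aggrecan, the main load-bearing proteoglycan of the disc. It was at 2681, 2506 and 2939 CPM in TBHP replicates 1, 2 and 3, and at 3476, 2864 and 4355 CPM in TBHP+FGF21 replicates 1, 2 and 3. Replicates 1 and 3 of the treated group were above every TBHP library, and replicate 2 was within their range, so the groups overlapped. The means were 2709 ± 218 and 3565 ± 749 CPM (SD, n = 3 each). On the log2 scale the difference was 0.40 (standard error 0.14, 95% interval 0.090 to 0.70) and edgeR's adjusted p was 0.553. Without replicate 2 of the treated group it was 0.54 and the adjusted p by edgeR was 0.0126, and without replicate 3, the highest library, it was 0.23 with an adjusted p of 0.973.

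Vcan encodes versican, a related hyaluronan-binding proteoglycan that is more widespread in loose and developing matrix. Its levels were 57.6, 72.6 and 73.8 CPM with TBHP and 74.1, 72.1 and 106 CPM with TBHP and FGF21. A single library, replicate 3 of the treated group, stood clear of the others, and replicate 1 exceeded the highest TBHP library by less than 1 CPM. Its log2 fold change was 0.31 (standard error 0.15, 95% interval -0.020 to 0.64, adjusted p = 0.553, edgeR). Without replicate 3 of the treated group the value was 0.11, and without replicate 2 it was 0.42 with an adjusted p of 0.0747 by edgeR.

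The link proteins bind hyaluronan and the core protein at once and lock the aggregate together. Hapln1, the link protein of cartilage and disc, was at 41.8, 41.7 and 32.2 CPM with TBHP and at 51.5, 35.3 and 37.9 CPM with TBHP and FGF21. Its highest level was in replicate 1 of the treated group, and the other treated libraries lay inside the TBHP range. This gave a log2 fold change of 0.11 (standard error 0.15, 95% interval -0.22 to 0.44, adjusted p = 0.804, edgeR), which was -0.062 without that library. Hapln3, a related link protein, was counted 125 to 178 times per library, at 8.16, 7.53 and 6.23 CPM with TBHP and 5.92, 7.66 and 7.76 CPM with TBHP and FGF21. The log2 fold change of Hapln3 was -0.035 (95% interval -0.40 to 0.33), and the groups overlapped. By RefSeq's order of coding genes on GRCr8, Acan lies next to Hapln3 on chromosome 1 and Vcan next to Hapln1 on chromosome 2, so each pair of neighbours held a core protein with the larger and a link protein with the smaller log2 fold change. The difference within these pairs was not tested.

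Has2, the main hyaluronan synthase of connective tissue cells, was the gene with the largest negative difference. It was at 16.4, 15.7 and 16.9 CPM with TBHP and at 10.8, 15.4 and 10.5 CPM with TBHP and FGF21. All treated libraries were below all TBHP libraries, although replicate 2 (321 counts) was only just below the lowest of them. Has2 was the only 1 of the 10 genes whose groups did not overlap, against 9.90% of all genes tested (4.90% higher and 5.00% lower). The means were 16.3 ± 0.573 and 12.2 ± 2.74 CPM (SD, n = 3 each), a log2 fold change of -0.42 (standard error 0.15, 95% interval -0.76 to -0.085, adjusted p = 0.553, edgeR). Without replicate 2 of the treated group it was -0.61, with an adjusted p of 0.0137 by edgeR. In RefSeq's annotation Has2 overlaps a long noncoding RNA, and how reads of the shared stretch were assigned is not known here. The other synthases had few counts, 5 to 15 counts of Has1 and 8 to 25 counts of Has3 per library.

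Hyal1, a hyaluronidase that works in lysosomes, was at 9.10, 7.98 and 10.3 CPM with TBHP and at 15.0, 9.33 and 13.3 CPM with TBHP and FGF21. Replicates 1 and 3 of the treated group were above all TBHP libraries, and replicate 2 was among them. The means were 9.13 ± 1.17 and 12.5 ± 2.89 CPM (SD, n = 3 each), and the log2 fold change was 0.46 (standard error 0.18, 95% interval 0.064 to 0.85, adjusted p = 0.553, edgeR). It was 0.64 without replicate 2 of the treated group (adjusted p = 0.0188 by edgeR). In RefSeq's annotation Hyal1 overlaps Naa80 and Hyal3. Reads that hit several genes were left out as ambiguous, but the annotation used for counting is not given in the sources used here. The 2 strand columns held about equal shares of the reads, so they do not set the strands apart. The log2 fold change of Hyal1 was 0.35 in one strand column and 0.57 in the other. Hyal2, the hyaluronidase anchored at the cell surface and the neighbour of Hyal1 on chromosome 8, was at 47.1, 38.5 and 43.6 CPM with TBHP and 44.2, 42.2 and 51.0 CPM with TBHP and FGF21. Its groups overlapped, with a log2 fold change of 0.090 (95% interval -0.15 to 0.33).

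Cd44, the main cell surface receptor for hyaluronan, had the most even levels of the 10 genes. It was at 813, 837 and 864 CPM with TBHP and at 843, 797 and 873 CPM with TBHP and FGF21. The means were 838 ± 25.3 and 837 ± 38.4 CPM (SD, n = 3 each), and the log2 fold change was -0.0011 with a 95% interval of -0.20 to 0.20. Cspg4, a transmembrane chondroitin sulfate proteoglycan also carried by pericytes, was at 1234, 1111 and 1279 CPM with TBHP and at 1129.7, 1262 and 1269 CPM with TBHP and FGF21. It overlaps Cimap1c in RefSeq's annotation, and its log2 fold change was 0.015 (95% interval -0.20 to 0.23). Chst11, which adds sulfate to chondroitin chains, was at 54.6, 50.6 and 62.7 CPM with TBHP and at 39.8, 59.9 and 51.0 CPM with TBHP and FGF21. Replicate 1 of the treated group was the lowest library for Chst11. The log2 fold change of Chst11 was -0.16 (standard error 0.14, 95% interval -0.46 to 0.15, adjusted p = 0.696, edgeR), -0.0030 without that library and -0.29 without replicate 2 of the treated group.

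**Figure D2:**
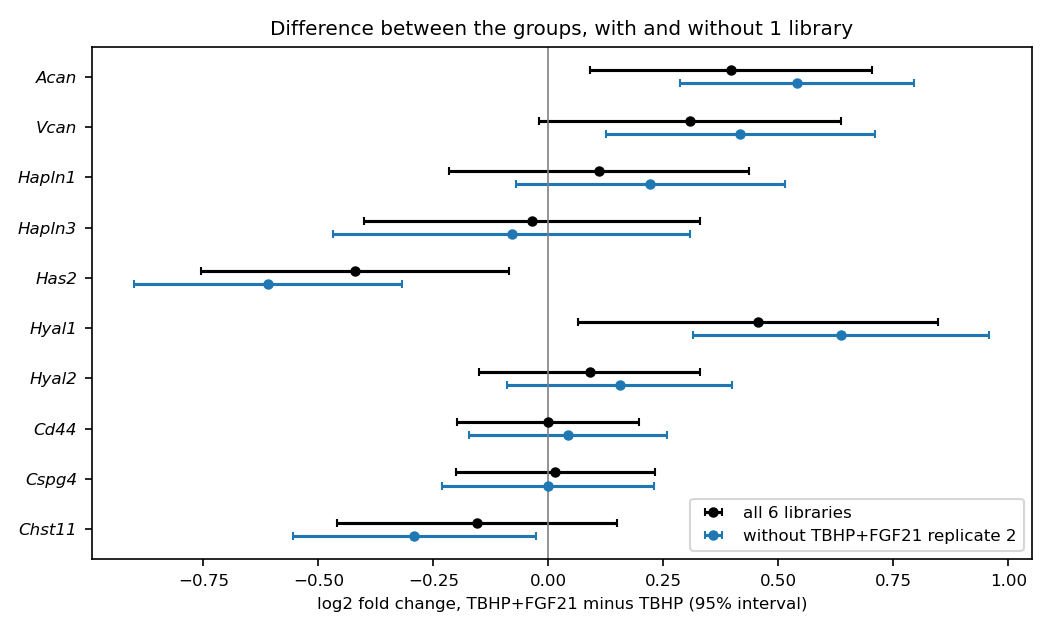
Log2 fold change of each gene (TBHP+FGF21 minus TBHP, edgeR) with its 95% interval, for all 6 libraries and without replicate 2 of the treated group. With all libraries the intervals of Acan (0.090 to 0.70), Hyal1 (0.064 to 0.85) and Has2 (-0.76 to -0.085) lie to one side of 0, and without replicate 2 their values move further from 0.

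Leaving out replicate 2 of the TBHP+FGF21 group changed the number of adjusted p-values under 0.05, with the bias given above. Acan and Hyal1 (higher) and Has2 (lower) then had an adjusted p under 0.05 by edgeR, 3 of the 10 genes, against 7.50% of the 11559 genes tested without this library (3.78% higher and 3.72% lower). At an unadjusted p under 0.05 there were 5 of the 10, with Vcan and Chst11 added, against 23.6% of all genes. The median log2 fold change of the 10 genes was 0.099 without it, beside 0.0014 over all genes. Leaving out any other single library gave an adjusted p under 0.05 for none of the 10 genes and for at most 1 gene of all those tested. Without replicate 3 of the treated group, none of the 10 had an unadjusted p under 0.05 in edgeR. The direction of Acan, Vcan, Has2, Hyal1, Hyal2 and Chst11 was the same whichever library was left out, and that of the other 4 genes was not.

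**Figure D3:**
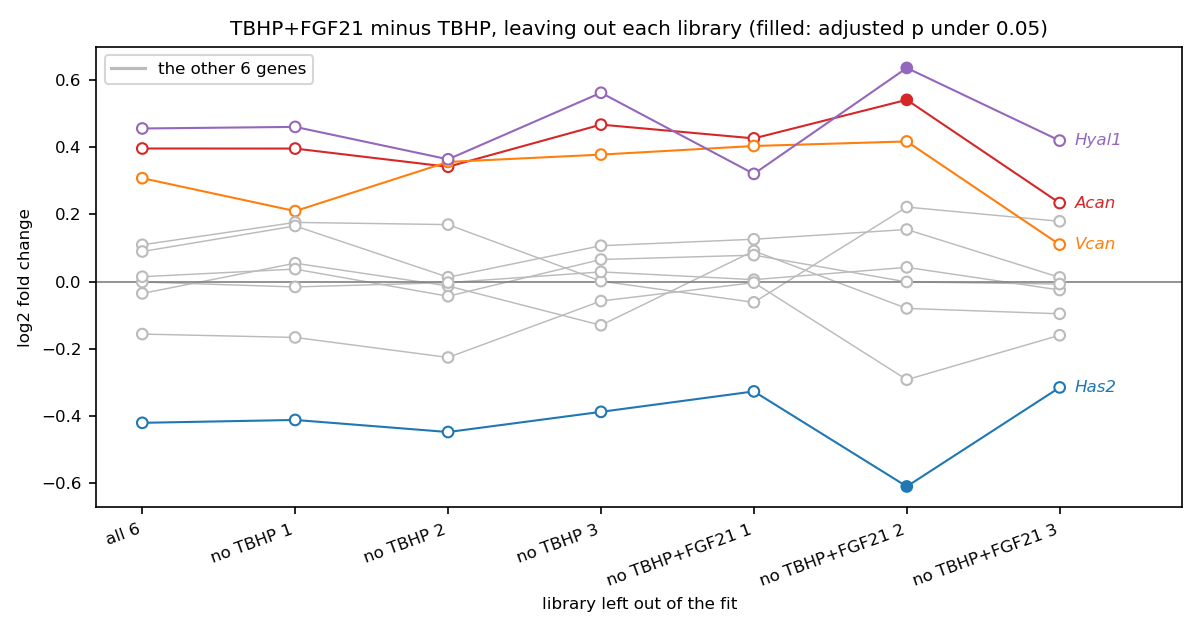
Log2 fold change of each of the 10 genes (vertical axis, TBHP+FGF21 minus TBHP) with all libraries and with each library left out in turn (horizontal axis), with filled symbols where edgeR's adjusted p was under 0.05. The 3 filled symbols, Acan at 0.54, Hyal1 at 0.64 and Has2 at -0.61, are all in the fit that lacks the second treated library.

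The balance within the system was compared by ratios inside each library, which need no scaling between libraries. The log2 ratio of Has2 to Hyal2 counts was -1.53, -1.29 and -1.37 with TBHP and -2.04, -1.46 and -2.28 with TBHP and FGF21, lower by 0.53 on average. Replicate 2 of the treated group again fell inside the TBHP range, and the exact two-sided permutation p was 0.2. The log2 ratio of Cd44 to Has2 was 5.68 on average with TBHP and 6.12 with TBHP and FGF21, a difference of 0.44 (exact permutation p = 0.2). The log2 ratio of Acan to Vcan was 5.32 ± 0.215 and 5.41 ± 0.128 (SD, n = 3 each, exact permutation p = 0.5). Acan to Hapln1 differed by 0.28 (exact permutation p = 0.5), and Vcan to Cspg4 also by 0.28 (exact permutation p = 0.4). All 5 ratios overlapped between the groups and all had a Benjamini-Hochberg adjusted permutation p of 0.5, where the smallest exact p that 3 libraries against 3 allow is 0.1.

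**Figure D4:**
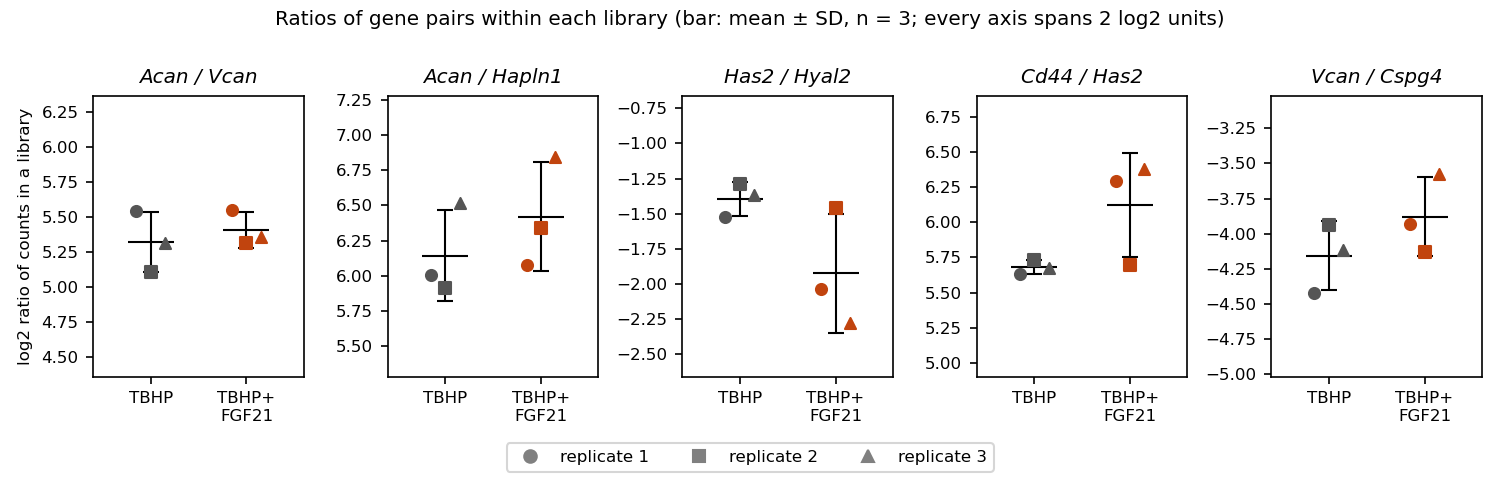
Log2 ratio of the counts of 5 gene pairs within each library, with the mean ± SD of each group (n = 3). For Has2 to Hyal2, replicates 1 and 3 of the TBHP+FGF21 group (-2.04 and -2.28) lie below all TBHP libraries and replicate 2 (-1.46) does not.

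The other genes of the pathway were read from 12 lists, some of which share genes. No gene of these lists other than the 10 had an adjusted p under 0.05 in edgeR with all libraries, and 17 had an unadjusted p under 0.05. The list counts below are of genes with an unadjusted p under 0.05 by edgeR, for which 4.63% of all genes were higher and 4.29% lower. Both hyalectan core proteins tested are Acan and Vcan, with Acan among these genes and a list median of 0.35. None of the 3 link proteins tested was among them (median -0.035), and Hapln4 was at -0.20.

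Of 11 genes of hyaluronan synthesis, 8 had a negative log2 fold change (median -0.17), and 1, Has2, had an unadjusted p under 0.05. Hk1, the hexokinase at the head of the sugar supply, was at 0.11. Without replicate 2 of the treated group, Ugdh, which makes the glucuronic acid donor, went from a log2 fold change of -0.25 (adjusted p = 0.568 by edgeR) to -0.42 (adjusted p = 0.0296). Of 7 genes of hyaluronan breakdown, 6 had a positive log2 fold change (median 0.17) and 2 had an unadjusted p under 0.05. These were Hyal1 and Cemip, a hyaluronan-degrading protein, which was at 26.7 ± 2.67 and 35.03 ± 5.88 CPM (SD, n = 3 each) and 0.40 on the log2 scale (SE 0.13). The adjusted p of Cemip by edgeR was 0.553 with all libraries and 0.0117 without replicate 2 of the treated group. The lysosomal hexosaminidase Hexa was at 0.17. Of 10 hyaluronan-binding proteins and receptors, Tlr4 alone had an unadjusted p under 0.05, at 10.6 ± 0.668 and 8.45 ± 0.364 CPM (SD, n = 3 each) with groups that did not overlap (list median 0.088). Habp4 was at 0.0060 there, and Tnfaip6, which modifies hyaluronan with inter-alpha-inhibitor chains, was at -0.46 with all libraries (adjusted p = 0.557 by edgeR) and at -0.76 without replicate 2 of the treated group (adjusted p = 0.0426). Tlr4 went from -0.33 with all libraries to -0.36 in that fit (adjusted p = 0.164 by edgeR).

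The genes listed for building the chondroitin chain were mostly lower and those listed for its breakdown mostly higher in mean. Of 8 genes of chain polymerisation, 7 had a negative log2 fold change (median -0.16) and 2 had an unadjusted p under 0.05, the chondroitin synthases Chsy1 and Chsy3. Chsy1 was at 191.9 ± 1.86 CPM with TBHP and 151.8 ± 33.2 CPM with TBHP and FGF21 (SD, n = 3 each), and its groups did not overlap. The log2 fold change was -0.34 for Chsy1 and -0.66 for Chsy3, and without replicate 2 of the treated group -0.52 and -1.11 (adjusted p = 0.00512 and 0.00115 by edgeR). Without replicate 3 instead they were at -0.21 and -0.39 (adjusted p = 0.973 for both by edgeR). Chpf, their partner, was at -0.045. Of 8 genes listed under chondroitin breakdown, 7 had a positive log2 fold change (median 0.21). The list includes lysosomal enzymes that are not specific to chondroitin, Idua and Glb1 among them. An unadjusted p under 0.05 was found for 3 of the 8: the lysosomal enzymes Arsb (0.30), Idua (0.30) and Glb1 (0.31). Without replicate 2 of the treated group these were at 0.44, 0.46 and 0.48, with adjusted p of 0.0131, 0.0160 and 0.00924 by edgeR, and without replicate 3 at 0.21, 0.24 and 0.19 (adjusted p = 0.973 for each). Among 6 genes of the linker to the core protein (median 0.064), Pxylp1, a xylose phosphatase, was at 0.25 with an unadjusted p under 0.05 (0.16 without replicate 3 of the treated group), and Fam20b was at 0.043. Among 11 sulfation genes, of which Chst11 is 1 (median 0.039), Chst15 was at 0.26 with an unadjusted p under 0.05 and Papss1 was at -0.083. Among 8 cell surface proteoglycans, of which Cspg4 is 1 (median 0.012), Tmeff2 was at 0.62 with an unadjusted p under 0.05. Tmeff2 was at 0.33 without replicate 3 of the treated group and at 0.88 without replicate 2 (adjusted p = 0.00245 by edgeR). The syndecan Sdc2 was at 0.0096.

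Of 10 proteases and inhibitors that act on aggrecan and versican (median 0.19), 4 had an unadjusted p under 0.05, 2 in each direction. The stromelysin Mmp3 was at 20.5 ± 2.35 and 41.0 ± 20.4 CPM (SD, n = 3 each), a log2 fold change of 1.00, and the collagenase Mmp13 was at 0.56. Without replicate 2 of the treated group they were at 1.32 and 0.83 (adjusted p = 6.06e-05 and 0.00119 by edgeR), and without replicate 3 at 0.59 and 0.29 (adjusted p = 0.973 for both). The aggrecanase Adamts4 was lower, at 8.87 ± 1.07 and 6.75 ± 0.562 CPM (SD, n = 3 each), and so was the aggrecanase inhibitor Timp3, at 27.5 ± 2.50 and 19.0 ± 6.26 CPM, and for both genes the groups did not overlap. Without replicate 3 of the treated group the log2 fold change of Timp3 went from -0.54 to -0.29. Without replicate 2 instead it was -0.74 (adjusted p = 0.0156 by edgeR). The protease Adamts1 was at 0.20. Without replicate 2 of the treated group, the protease Adamts8 went from 0.37 (adjusted p = 0.565 by edgeR) to 0.57 (adjusted p = 0.0290). In that fit Adamts4 was at -0.39 (adjusted p = 0.173 by edgeR). Of 9 chondrogenic and disc transcription factors (median 0.19), 7 had a positive log2 fold change and 3 had an unadjusted p under 0.05. Sox9, which drives Acan transcription in cartilage, was at 5.78 ± 0.766 and 8.47 ± 2.64 CPM (SD, n = 3 each), a log2 fold change of 0.56. Its partner Sox5 was at 1.08 from a low level (24 to 98 counts), whereas Sox6 on the same list was at 0.0094 (102 to 138 counts). Pax1, a factor of the sclerotome and disc, was at 0.54. Without replicate 2 of the treated group, the adjusted p by edgeR was 0.0216 for Sox9, 0.00671 for Sox5 and 0.000268 for Pax1. Foxf1 went from 0.27 with all libraries (adjusted p = 0.559 by edgeR) to 0.42 in that fit (adjusted p = 0.0329). Without replicate 3 instead, the log2 fold change was 0.30 for Sox9, 0.70 for Sox5 and 0.39 for Pax1, with an adjusted p of 0.973 by edgeR for each.

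**Figure D5:**
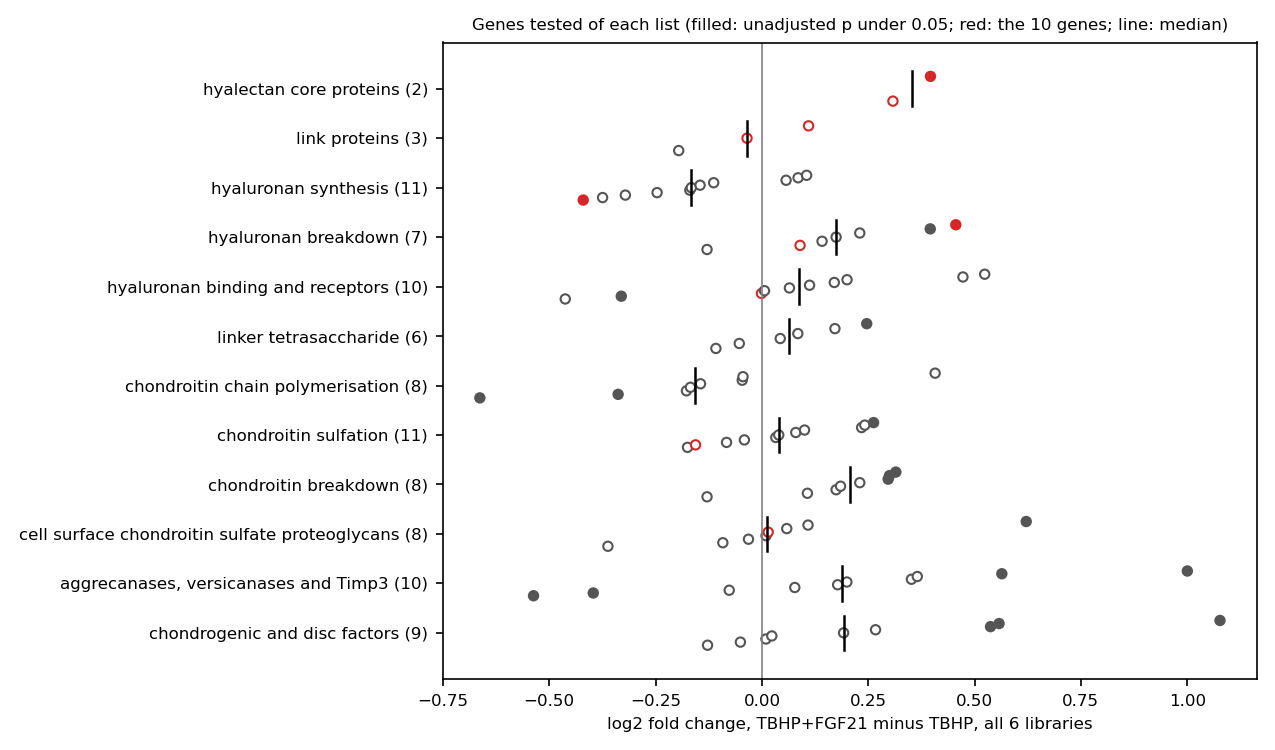
Log2 fold change of every tested gene of the 12 lists (horizontal axis, TBHP+FGF21 minus TBHP), 1 row per list with its number of genes, with the 10 genes described here in red, filled symbols for an unadjusted p under 0.05 and a black line for the list median. The medians range from -0.17 (hyaluronan synthesis) to 0.35 (core proteins), and no point had an adjusted p under 0.05 with all 6 libraries.

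No marker of another cell type had an adjusted p under 0.05 by edgeR with all libraries, and the markers within a list did not share a direction in the pericyte and fibroblast lists. Of 6 pericyte and smooth muscle markers tested, 3 had a positive and 3 a negative log2 fold change (median -0.0042). Acta2 and Mcam had an unadjusted p under 0.05, both with a log2 fold change of -0.46, Des was at 0.26 and Pdgfrb at 0.14, and the summed level of the list (CPM by library size) was 2936 to 3145 CPM with TBHP and 2625 to 3145 CPM with TBHP and FGF21. Cspg4 is on that list too and was at 0.015. Without replicate 2 of the treated group, Acta2 was at -0.76, Mcam at -0.69 and Des at 0.43. Their adjusted p by edgeR was then 0.00115, 0.00449 and 0.0265, with the bias given above. In that fit 7.50% of all genes tested had an adjusted p under 0.05. Of 9 fibroblast and annulus markers (4 positive, 5 negative, median -0.00081), Scx was at -0.39 and Pdgfra at 0.39, both with an unadjusted p under 0.05 by edgeR, and the sum of the list was 43074 to 47143 CPM against 33880.0 to 45275 CPM. Without replicate 2 of the treated group, Scx was at -0.60 and Pdgfra at 0.58 (adjusted p = 0.00546 and 0.00219 by edgeR). The tendon marker Tnmd had no count. The 4 cartilage markers tested were all negative with none at an unadjusted p under 0.05, with sums of 63.2 to 78.9 and 64.9 to 71.2 CPM, and Matn1 and Cnmd had no count. Of 9 nucleus pulposus markers tested, 4 had a positive and 5 a negative log2 fold change (median -0.012). Acan, Sox9 and Pax1 had an unadjusted p under 0.05 and were higher, whereas Krt8 was at -0.43, Cd24 at -0.55, Car3 at -0.34 and Col2a1 at -0.26. The 2 macrophage markers tested, Cd14 (-0.17) and Cd68 (0.088), gave none, with list sums of 32.1 to 37.1 and 26.7 to 33.6 CPM, and none of the endothelial markers had enough counts to be tested. The part of these cell types in the values of Acan, Has2 and Hyal1 was not tested.

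Across the 6 libraries, many genes had a pattern close to that of Acan, Has2 or Hyal1. Among 7823 genes with a mean of at least 10 CPM, the genes most like Acan by Pearson's r of log2 CPM were Crat (0.998), Pml (0.997), Elmo2 (0.996), Irf2 (0.996) and Pigs (0.995), and 601 genes had an r above 0.9. For Has2 they were Thg1l (0.993), Tpm3, Phospho2, Gpatch11 and Pop4, with 230 genes above 0.9. For Hyal1 they were Cilk1, Prelp, Atp6v0a1, Trappc10 and Ext2, with r from 0.992 to 0.995 and 506 genes above 0.9. Prelp encodes a small leucine-rich proteoglycan of cartilage and Ext2 a heparan sulfate polymerase. These values describe 6 points that share their library, treatment group and scaling.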

How the data were processed

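Gene expression was measured by RNA-seq in 6 libraries of rat NPCs (3 TBHP, 3 TBHP+FGF21), grouped by their deposited titles. The authors deposited whole read counts without normalization for each library, by Ensembl identifier (an unstranded column and a column per strand) and a combined raw count table by symbol. The combined table was handled under the unit of estimated counts, because 22 of the rows the authors deposited hold values that are not whole, and these were rounded up. The submitters' processing notes name STAR and featureCounts; versions, genome build and annotation are not given in the sources used here. Unmapped (1.24% to 1.40%), multimapping (6.27% to 7.02%), featureless (9.13% to 10.4%) and ambiguous reads (1.72% to 2.09%) named no gene and were left out. Strand columns held 50.8% to 51.1% and 51.7% to 52.2% of the unstranded counts. There were 0 columns without a sample. All 10 genes had identical counts in a per-sample row. No pair among the 15 pairs of libraries matched within sampling noise.

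Counts were scaled by TMM, filtered by filterByExpr (minimum count 10, minimum total 15) and tested with glmQLFit and glmQLFTest of edgeR 4.0.16 in R 4.3.3, with condition alone in the design and Benjamini-Hochberg adjustment over all genes. The standard error was taken from the fold change (log2) and its F statistic. The test was run first on simulated counts. Ratios were compared by exact two-sided permutation tests. The p-values measure the spread between these libraries, which the series text calls biological replicates without naming animals, and limits from counts cover counting error only. The 10 genes, the pathway and marker lists and the tests were chosen with earlier results of these data known. Named were all 10 genes, from each list the other genes with an unadjusted p under 0.05 and the one with the highest mean CPM, and the 5 genes most like Acan, Has2 and Hyal1. Ugdh, Tnfaip6, Adamts8, Sox6, Foxf1 and the marker genes were named after their values were seen. Alternatives were the per-sample and strand counts, DESeq2 1.42.0 (size factors and Wald test), voom of limma 3.58.1, other filters, the replicate block and leaving out each replicate. Promoter sequences are RefSeq's (GRCr8), used for sequence and gene order only.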

Additional observations from a re-analysis of the deposited data

How the results depend on the processing

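In all alternatives run, 6 of the 10 genes (Acan, Vcan, Has2, Hyal1, Hyal2, Chst11) held their direction, and none had an adjusted p under 0.05 except Acan, Has2 and Hyal1 without replicate 2 of the TBHP+FGF21 group, a library singled out by its expression. Leaving out each replicate, the number of the 10 genes with an adjusted p under 0.05 ran from 0 to 3 and with an unadjusted p under 0.05 from 0 to 5, which was 1 in strand column 3. For other genes of the pathway lists these numbers ran from 0 to 17 and from 5 to 33. Log2 fold changes near 0 changed sign. Leaving out each replicate, they ran from -0.062 to 0.22 for Hapln1, -0.13 to 0.091 for Hapln3, -0.025 to 0.043 for Cd44, -0.043 to 0.079 for Cspg4, -0.057 to 0.049 for Habp4, -0.14 to 0.013 for Chpf and -0.024 to 0.060 for Sdc2, and the Acan to Vcan log2 ratio difference from -0.022 to 0.19. Cd44 was at 0.0032 in the per-sample counts, 0.0033 with DESeq2's size factors and its Wald test, 0.011 without a filter and 0.0070 with 1 CPM in 3 libraries. In strand column 3 Hapln3 was at 0.022, and in strand column 4 Cd44 was at 0.029, Habp4 at -0.096 and Fam20b at -0.016. The cause of these shifts was not tested. Deviations of same-numbered libraries correlated at -0.12, 0.21 and 0.15, which does not show that the numbers pair the libraries, nor that they do not. With the replicate block, 0 of the 10 genes had an adjusted p under 0.05 in edgeR and 4 an unadjusted p under 0.05, and Acan was at 0.38 (adjusted p = 0.148). Not every library correlated best with its own number. Depth limits Hapln3, Hyal1 and Has2 most, at 125 to 360 counts per library.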
